A study of Mus musculus with 15 samples.

Results

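Jun and Cebpb, which encode the transcription factors c-Jun and C/EBPβ, were followed through mammary carcinogenesis in BALB-neuT mice. Probes were assigned to them by the RefSeq accession in the array files, without its version, which gave 1 probe for Jun (probe 534427, NM_010591.1) and 2 for Cebpb (probes 450590 and 640455, both NM_009883.1). These are 3 of the 33012 gene probes on the array and 2 of the 311 genes that could be named. The rule reads accessions and no signal, but the genes were chosen with earlier results of these data known. Mammary gland whole mounts, the whole gland with its epithelium, fat and stroma, were taken from mice of 10 weeks (5 arrays), 15 weeks (2 arrays), 19 weeks (4 arrays) and 22 weeks (4 arrays), each array from a single animal by the design text. Every mouse carried the neuT transgene, an activated rat HER-2/neu oncogene which in this strain is driven by the mouse mammary tumour virus promoter, and no animal without it was analysed here. Age and tumour stage therefore cannot be told apart, and sex and treatment are not given in the labels.

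Both proteins belong to the basic leucine zipper (bZIP) family, whose members pair through a coiled zipper of leucines and grip DNA with an adjoining basic stretch. c-Jun pairs mainly with Fos proteins to form AP-1, is induced within minutes by growth factor receptors of the ErbB family and by stress, and is activated by JNK kinases. C/EBPβ binds C/EBP elements in genes of milk proteins, inflammation and fat cell differentiation, and mice without it fail to form a normal ductal tree and lobules in the mammary gland. The single-exon Cebpb transcript is translated from several start codons into long activating and short inhibitory proteins, which an array for RNA cannot tell apart.

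The sequences just upstream of both genes are shown because c-Jun is known to act on its own promoter and CREB, another bZIP protein, on that of Cebpb. They are the 250 bases before the RefSeq start of each gene (GRCm38.p6; both genes were found in the promoter table), Jun at chr4:95052223-95052472 on the minus strand and Cebpb at chr2:167688665-167688914 on the plus strand, written 5′ to 3′ in the direction of transcription. Capitals mark CCAAT, the variant AP-1 element TGACATCA, and TGACG, the core letters of the cAMP response element.
Jun: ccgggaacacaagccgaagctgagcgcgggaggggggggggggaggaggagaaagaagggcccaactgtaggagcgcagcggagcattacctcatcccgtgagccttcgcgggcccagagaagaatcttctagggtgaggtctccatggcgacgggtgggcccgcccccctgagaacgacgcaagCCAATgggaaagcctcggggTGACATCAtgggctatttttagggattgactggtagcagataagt
Cebpb: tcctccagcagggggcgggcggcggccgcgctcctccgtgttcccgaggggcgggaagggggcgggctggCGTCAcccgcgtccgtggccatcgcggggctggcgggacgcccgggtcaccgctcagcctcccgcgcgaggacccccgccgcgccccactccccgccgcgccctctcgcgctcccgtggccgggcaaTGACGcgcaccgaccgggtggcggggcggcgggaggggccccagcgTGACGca
In the Jun sequence TGACATCA lay at -45 to -38 and CCAAT at -65 to -61 from the start, both on the coding strand. The Cebpb sequence held TGACG at -53 to -49 and at -7 to -3, and on the opposite strand at -180 to -176. On both strands of 32851 promoter windows of the same length, TGACATCA occurred in 2.93%, TGACG in 17.8% and CCAAT in 33.8%. The AP-1 consensus TGANTCA (6.75% of windows), the full cAMP response element TGACGTCA (1.55%) and the C/EBP palindrome TTGCGCAA (0.164%) were searched too and occur in neither sequence. TGACG is contained in TGACGTCA. The Cebpb sequence is 81.6% G and C and the Jun sequence 61.2%. These matches describe letters only, and binding was not measured.

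All 3 probes were read far above background. Above background meant a signal 3 or more times its noise. That ratio was 17.25 to 67.1 for Jun, 40.08 to 108.6 for Cebpb probe 450590 and 28.08 to 82.74 for Cebpb probe 640455 over the 15 arrays, with no quality flag set. Array medians ran from 650.2 to 1626, and signals were taken to log2 and quantile normalized, so that every level below is a log2 signal on that scale. The tissue label was checked with milk and fat genes. Csn1s2a, a casein, was above background on 14 of 15 arrays and Aoc3, an amine oxidase of fat cells and vessels, on 15. The other nameable milk genes were above background on fewer arrays, Csn1s2b on 7, Csn2 on 9 and Wap on 6. Epcam, Krt18 and Adipoq have no named probe. The arrays carry serial numbers in 4 runs, here called array series 1 to 4, and were scanned on 2 days. Day 1 held week 10 replicates 1 to 4 and replicate 1 of weeks 15, 19 and 22. Day 2 held week 10 replicate 5, week 15 replicate 2, and replicates 2 to 4 of weeks 19 and 22. Scan day and age thus went largely together, and their parts in differences from week 10 cannot be fully separated. Series 2 holds week 15 replicate 1 and week 22 replicate 1, and series 4 holds 7 arrays of all 4 ages. Series 3 holds week 10 replicates 4 and 5, week 19 replicates 2 and 4, and week 22 replicate 2.

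Cebpb was higher at week 19 than at week 10 by its brighter probe, 450590. That probe read 17.94, 18.30, 17.54, 18.00 and 18.03 at week 10, 17.95 and 18.18 at week 15, 18.95, 18.60, 18.83 and 18.36 at week 19, and 18.14, 18.54, 18.76 and 18.48 at week 22. The lowest week 19 gland stood above the highest week 10 gland, and week 22 overlapped with week 10 through replicate 1 alone. The order of the age means was week 10 (17.96 ± 0.27, SD, n = 5), week 15 (18.07 ± 0.16, n = 2), week 22 (18.48 ± 0.26, n = 4) and week 19 (18.68 ± 0.26, n = 4). Weeks 15 and 10 differed by 0.11 ± 0.24 (SE) and weeks 22 and 19 by -0.21 ± 0.20, neither of which passed (limma adjusted p = 0.866 and 0.881). Between weeks 15 and 10, 0.0335% of kept probes were called, 0.0192% as higher, and 7.11% had both week 15 values above all of week 10. Between weeks 22 and 19 limma called 0 probes (0%, also as higher), with 1527 at an unadjusted p under 0.05, and 3.78% had every week 22 value above every week 19 value. Weeks 19 and 15 differed by 0.62 ± 0.24 (SE), which did not pass either (limma adjusted p = 0.103). That comparison called 13.6% of kept probes, 6.66% as higher. Every week 19 value lay above both week 15 values, as in 18.8% of kept probes. Weeks 22 and 15 overlap by their values and were not tested against each other.

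Between week 19 and week 10 the log2 change of probe 450590 was 0.72 ± 0.19 (SE), a 1.65-fold rise with a 95% interval of 1.24 to 2.19 (limma adjusted p = 0.0249 over 20867 probes). In that comparison 12.5% of all kept probes were called, 7.28% as higher at week 19, and in 9.37% every week 19 value lay above every week 10 value. The exact permutation test of this 1 probe gave p = 0.0159, two-sided, where 0.00794 is the smallest its 126 splits allow. The call was lost without week 19 replicate 1 (0.64, adjusted p = 0.0687), replicate 2 (0.75, adjusted p = 0.0526) or replicate 3 (0.67, adjusted p = 0.0807). It was also lost with scan day (0.67, adjusted p = 0.0751) or array series (0.65, adjusted p = 0.0549) as a block. The change itself was 0.46 within series 3, 0.91 within series 4, 1.0 within scan day 1 and 0.57 within scan day 2. Of these, series 4 and scan day 1 each held only 1 week 19 array, and scan day 2 only 1 week 10 array. In whole glands more cells of a type and more RNA per cell cannot be told apart.

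At week 22 the same probe was 0.52 ± 0.19 above week 10 and did not pass (limma adjusted p = 0.0929, 95% interval 0.11 to 0.92), in a comparison that called 12% of probes, 7.78% as higher. In 10% of probes every week 22 value lay above every week 10 value. All 4 week 22 values lay above the week 10 median. The exact permutation test gave p = 0.0238. This value depended on the scaling. With each array centred on its median it was 0.78 (adjusted p = 0.00565), where the median of all kept probes had moved to 0.14, against -0.01 after quantile normalization. Relative to those medians the change was 0.65 and 0.53. It was 0.52 within series 3 and 0.69 within series 4, and 0.19 among the arrays of scan day 1 and 0.56 among those of day 2. Series 3 and scan day 1 each held only 1 week 22 array, and scan day 2 only 1 week 10 array.

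Set against both early ages together, both late ages were higher for probe 450590 by 0.57 ± 0.15 (1.48-fold, 95% interval 1.18 to 1.87, limma adjusted p = 0.0167). This contrast called 26.5% of all kept probes, 13.6% as higher. It kept its call with scan day (0.53, adjusted p = 0.0472) and array series (0.49, adjusted p = 0.0435) as a block, and lost it without week 15 replicate 1 (0.51, adjusted p = 0.0801). Among the arrays of scan day 1 it was 0.59, among those of day 2 it was 0.49, and within series 4 it was 0.67. Both late ages had only 1 array each on day 1, as had both early ages on day 2 and weeks 15 and 19 in series 4. As a trend the probe rose by 0.054 ± 0.016 per week (adjusted p = 0.0355, with 15.9% of probes called, 9.49% as rising), and by 0.048 with scan day as a block (adjusted p = 0.127). The F test over the 4 ages, which called 16.1% of probes, gave it an adjusted p of 0.0534.

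**Figure D1:**
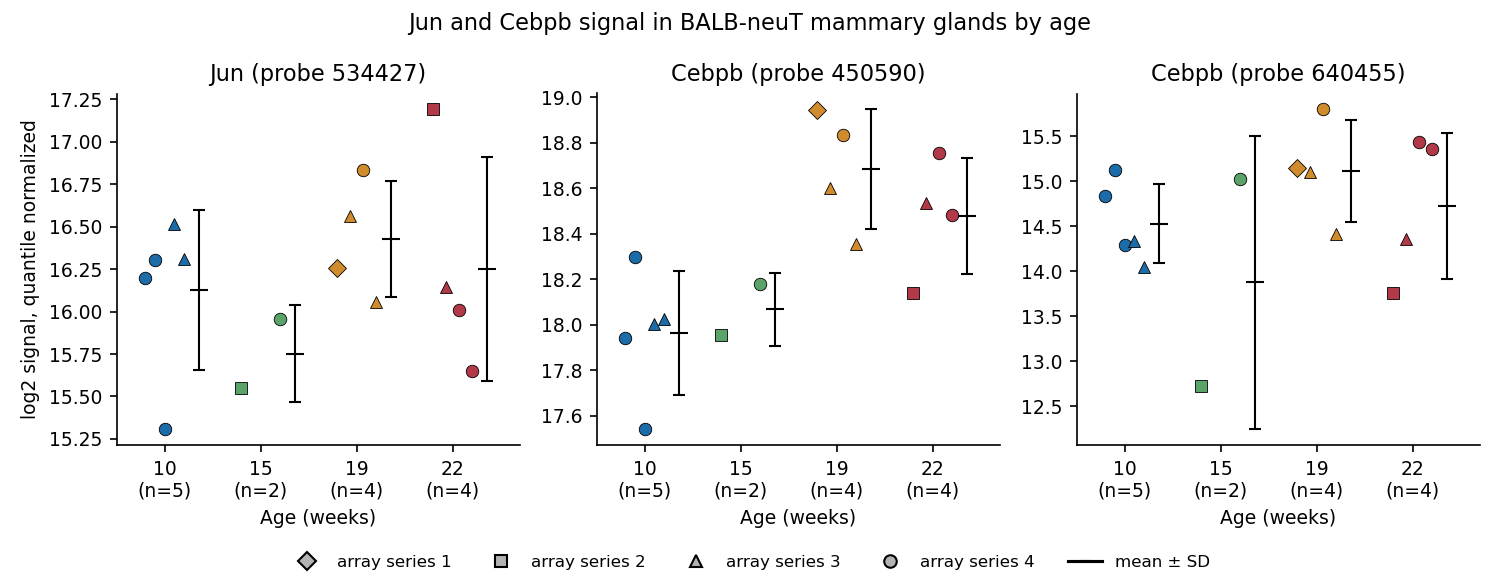
Log2 signal of Jun and of the 2 Cebpb probes on each array (points, shaped by array series) against age in weeks, with mean ± SD beside each age. The vertical scales differ between panels. For Cebpb probe 450590 all week 19 arrays lie above all week 10 arrays, while the Jun values of weeks 10, 19 and 22 overlap.

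The second Cebpb probe, 640455, was on average also higher at weeks 19 and 22 than at week 10, but had its lowest mean at week 15, had a wider spread and passed no comparison in the fit without a block. It read 14.84, 15.13, 14.29, 14.34 and 14.05 at week 10, 12.72 and 15.03 at week 15, 15.15, 15.11, 15.80 and 14.42 at week 19, and 13.76, 14.35, 15.44 and 15.36 at week 22. The 2 lowest of all 15 values were the 2 arrays of series 2, week 15 replicate 1 and week 22 replicate 1. Of the remaining values at those ages, week 22 replicate 2 (14.35, series 3) lay just below the lowest of week 19 (14.42). The others lay within the range of week 19. Its means were 14.53 ± 0.44 at week 10 (SD, n = 5), 13.88 ± 1.63 at week 15 (n = 2), 15.12 ± 0.56 at week 19 (n = 4) and 14.73 ± 0.81 at week 22 (n = 4). Among all kept probes 4.74% likewise had their lowest pair of values on the series 2 arrays, and 3.49% had their highest pair there.

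From week 10, this probe differed by 0.59 ± 0.48 at week 19 (limma adjusted p = 0.463, 95% interval -0.44 to 1.61) and by 0.20 ± 0.48 at week 22 (adjusted p = 0.829, interval -0.83 to 1.22). Exact permutation tests gave p = 0.103 for week 19 and p = 0.619 for week 22. Late against early ages it differed by 0.72 ± 0.39 (adjusted p = 0.19). The spread within ages was 0.76, larger than that of 76.1% of kept probes, against 0.26 for probe 450590 and a median of 0.48 over all kept probes. With array series as a block the SE of the late against early difference was 0.20 and the probe passed (0.70, adjusted p = 0.0308). Under the same block weeks 19 and 22 differed from week 10 by 0.80 and 0.54 (adjusted p = 0.0652 and 0.173). Scan day as a block left 0.27 at week 19 and -0.12 at week 22, so the week 22 direction was not stable.

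**Figure D2:**
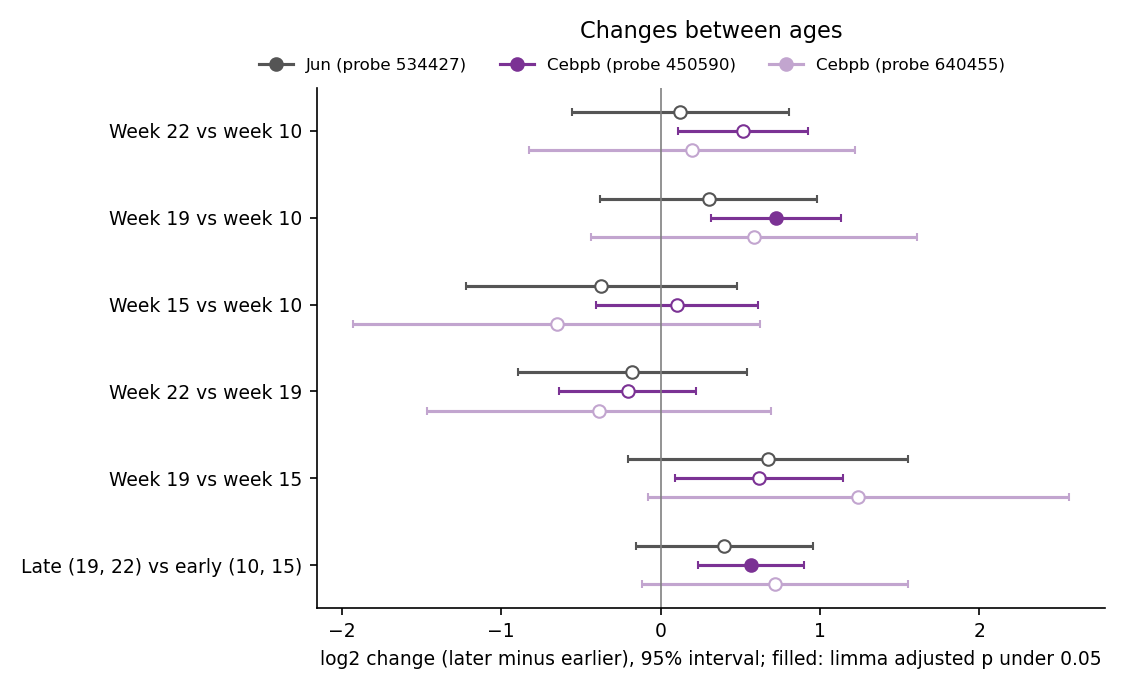
Log2 change of each probe (later minus earlier age) with its 95% interval for 6 comparisons, filled where the limma adjusted p was under 0.05. Cebpb probe 450590 is filled at week 19 against week 10 (0.72) and for late against early ages (0.57), and no Jun point is filled.

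The 2 Cebpb probes agreed from gland to gland. Over the 15 arrays Pearson's r was 0.63 (permutation p = 0.0103) and Spearman's rho 0.76 (permutation p = 0.00155), and over the 3 relations computed among the probes the adjusted values were p = 0.031 and p = 0.00465. Without the 2 arrays farthest from the median of probe 450590 r was 0.70, and without those farthest for probe 640455, which are the series 2 arrays, it was 0.68. With age means removed r was 0.63. Among the arrays of scan day 1 r was 0.45 (n = 7) and among those of day 2 it was 0.74 (n = 8). Median centring of the arrays lowered it to 0.45 (permutation p = 0.0914).

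Within array series 4 the agreement was closest. There r was 0.98 and the ranks of the 7 arrays were the same for both probes (rho of 1.0). Centred on their own means over 15 arrays, probe 640455 stood above probe 450590 by 0.34 to 0.62 on all 7 series 4 arrays, which include all 4 ages. On the 5 arrays of series 3 the difference was -0.53 to 0.16, on the series 1 array -0.15, and on the series 2 arrays -1.58 and -0.73. All series 4 arrays thus lay above all 8 others. Series 4 fully apart from the others was found in 4 of 491 other probe pairs that share an identifier and, like the Cebpb pair, were above background on all arrays (0.815%), a comparison made after the Cebpb values were seen. Those pairs had a median r of 0.47 (quartiles 0.13 and 0.77), and 37.5% of them had a higher r than the Cebpb pair. Over all 1050 pairs of kept probes that share an identifier the median r was 0.34 and 28.5% were higher.

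**Figure D3:**
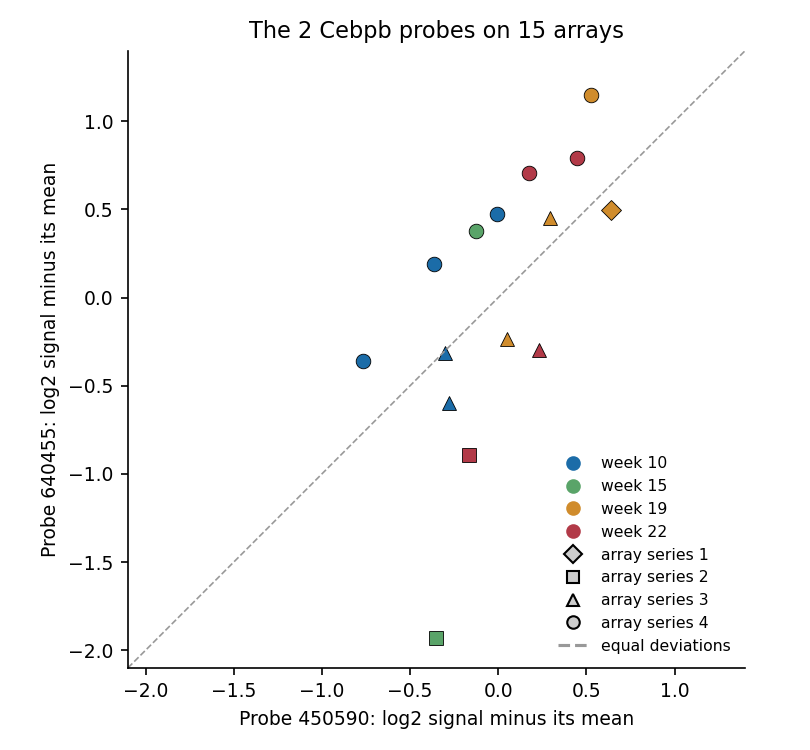
Log2 signal of Cebpb probe 640455 against probe 450590 on 15 arrays, each minus the probe's own mean, coloured by age and shaped by array series, with a dashed line of equal deviations. The 7 series 4 arrays lie on a line above the dashed one (r = 0.98) and the 2 series 2 arrays lie farthest below it.

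Between ages the difference of the probes did not pass. Probe 640455 minus probe 450590 averaged -0.096 at week 22 and 0.22 at week 10, a change of -0.32 (exact permutation p = 0.349). At week 19 it averaged 0.087, -0.13 from week 10 (exact permutation p = 0.587). All 5 pairs of ages tested had an adjusted p of 0.6, and with these group sizes large disagreements could be missed. Series 4 supplied 2 of the 4 week 22 arrays, 1 of the 4 week 19 arrays and 3 of the 5 week 10 arrays. The part of the array series in the age differences was measured only through the block and the within-series values above.

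**Figure D4:**
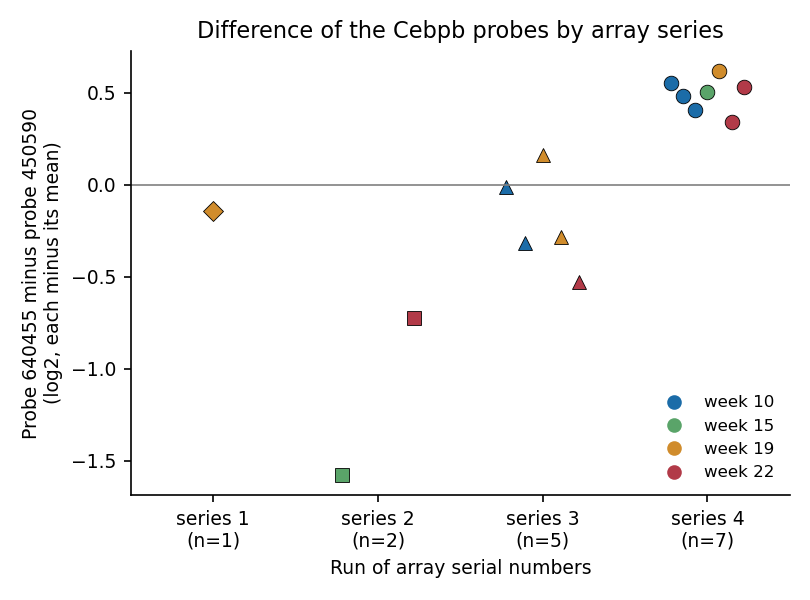
Difference of the 2 Cebpb probes on each array (probe 640455 minus probe 450590, log2, each minus its mean) by run of array serial numbers, coloured by age. All 7 arrays of series 4 sit between 0.34 and 0.62, whatever their age, above the 8 arrays of the other series.

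Jun showed no difference between ages that passed the test. It read 16.20, 16.30, 15.31, 16.52 and 16.31 at week 10, 15.55 and 15.95 at week 15, 16.26, 16.56, 16.83 and 16.05 at week 19, and 17.19, 16.15, 16.01 and 15.65 at week 22. The highest and the third lowest of the 15 values both came from week 22, in replicates 1 and 4. The lowest was week 10 replicate 3, which was also lowest for Cebpb probe 450590. Age means in rising order were 15.75 ± 0.29 at week 15 (SD, n = 2), 16.13 ± 0.47 at week 10 (n = 5), 16.25 ± 0.66 at week 22 (n = 4) and 16.43 ± 0.34 at week 19 (n = 4).

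Jun at week 19 differed from week 10 by 0.30 ± 0.32 (limma adjusted p = 0.589, 95% interval -0.38 to 0.98), and 2 of 4 week 19 values lay above all of week 10. At week 22 the interval ran from -0.56 to 0.81 around the difference of 0.12. These data thus allow a change of Jun between 0.68-fold and 1.75-fold at week 22, and of 0.77-fold to 1.98-fold at week 19. The exact permutation tests gave p = 0.778 and p = 0.349 for weeks 22 and 19. The direction at week 22 rested on single arrays. Without week 22 replicate 1 the difference was -0.19, and without the low week 10 replicate 3 it was -0.081. Within array series 3 and 4, which do not hold week 22 replicate 1, it was -0.26 and -0.10. Series 3 held only 1 week 22 array. Weeks 19 and 15 did not overlap, with a difference of 0.67 ± 0.41 (adjusted p = 0.273, where 13.6% of probes were called, 6.66% as higher). Among all kept probes 18.8% had every week 19 value above both week 15 values.

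Jun and Cebpb did not go together detectably across the glands. Jun correlated with Cebpb probe 450590 at r = 0.35 (rho 0.28, permutation p = 0.198 and p = 0.318, adjusted p = 0.297 and p = 0.478 over the 3 relations) and with probe 640455 at r = 0.17 (rho 0.071, permutation p = 0.54 and p = 0.8, adjusted p = 0.54 and p = 0.8). Without the 2 arrays farthest from the median of the Cebpb probe r was 0.12 and 0.26, and without the 2 farthest from the median of Jun it was 0.29 and 0.45. Single arrays moved it widely. With probe 450590 it was 0.11 without week 10 replicate 3 and 0.52 without week 22 replicate 1 (permutation p = 0.717 and p = 0.0596), and with probe 640455 it was -0.11 without week 15 replicate 1 and 0.45 without week 22 replicate 1. With age means removed it was 0.15 and -0.065. Among the arrays of scan day 1 it was 0.42 with probe 450590 and 0.20 with probe 640455, and among those of day 2 it was 0.36 and 0.17. Within series 4 alone it was 0.64 and 0.72 (n = 7).

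Few genes that act with these factors could be named on the array. Of 44 other bZIP genes listed, among them the Fos and Jun partners and the other C/EBP genes, none has a named probe. Of 33 genes of upstream signalling 3 were measured, and 1 fell and none rose at week 22 against week 10, with none passing at week 19. Of all kept probes, 12% were called in either direction at week 22 and 12.5% at week 19. Stat5a encodes a transcription factor that acts with C/EBPβ on milk genes downstream of prolactin. It stood at 14.55 ± 0.044 at week 22 (SD, n = 4), 14.71 ± 0.25 at week 19 (n = 4) and 15.18 ± 0.41 at week 10 (n = 5). Its changes were -0.63 ± 0.22 at week 22 and -0.47 ± 0.22 at week 19 (limma adjusted p = 0.0783 and 0.174). For its close relative Stat5b they were -0.29 ± 0.16 and -0.092 ± 0.16 (adjusted p = 0.263 and 0.763). Mapk7, the kinase ERK5, was the gene that fell at week 22.

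Of 41 listed target genes of C/EBP or AP-1 factors 4 were measured, all of them milk protein genes. All 4 were higher at week 22 than at week 10, where 12% of all kept probes were called, 7.78% as higher. Csn1s2b, Csn2 and Wap passed the filter only through the arrays of weeks 19 and 22, where they were high. A rise from week 10 was thus nearly fixed for them by the filter, and no conclusion is drawn from their count. At week 10 Csn1s2a was above background on 4 of 5 arrays, and Csn1s2b, Csn2 and Wap on 1 of 5 each, so that the sizes of their changes rest on week 10 signals that lay mostly at background. On those signals the median log2 change was 4.46, against -0.01 over all kept probes. At week 19, 2 of the 4 rose, with a median of 2.75, where 12.5% of probes were called, 7.28% as higher. Csn2, β-casein, whose promoter is a textbook site of C/EBPβ and STAT5 binding, was at 12.52 to 16.99 at week 19 and at 9.70 to 10.97 at week 10. It was above background on all 4 week 19 arrays. Csn2 and Csn1s2a were the 2 that rose at week 19.

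**Figure D5:**
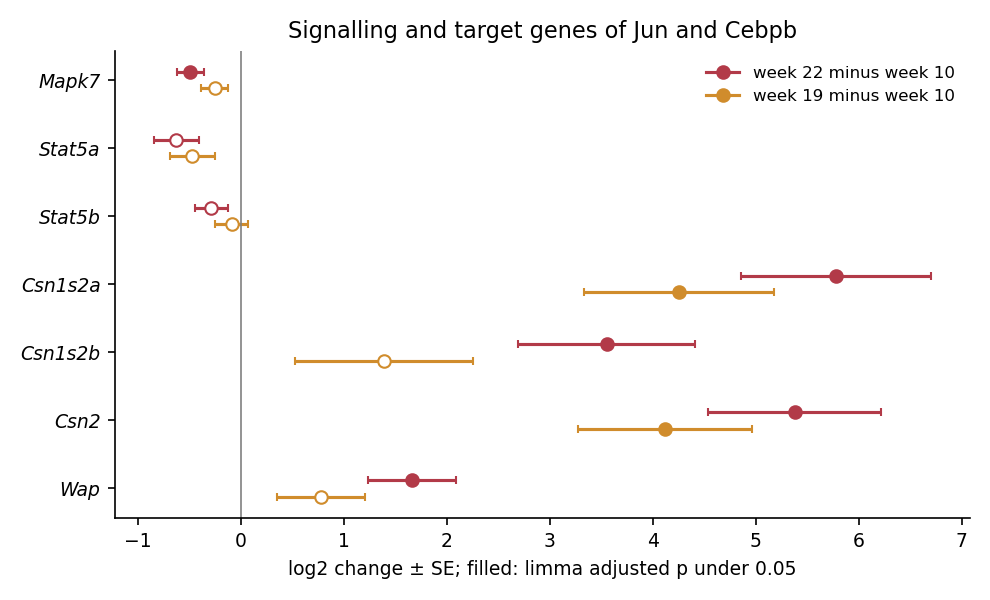
Log2 change ± SE of the measured signalling and target genes at week 22 and week 19, each minus week 10, filled where the limma adjusted p was under 0.05. Mapk7 and the 4 milk protein genes are filled at week 22 and 2 of the milk genes at week 19, and Stat5a and Stat5b are not filled at either age.

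Some markers of other cells, like Cebpb probe 450590, did not overlap between week 19 and week 10, and others overlapped. A rise without overlap was found in 9.37% of all kept probes, and the share for a fall was not computed. The mean log2 signal over the 4 nameable milk and luminal markers of 12 was 11.22 to 14.61 at week 19 and 9.28 to 10.39 at week 10. Over 2 of 8 leukocyte markers (Lst1 and Bcl2a1b) it was 14.81 to 15.32 at week 19 and 13.16 to 13.86 at week 10. Aoc3, the only nameable fat marker of 6, went the other way, at 17.12 to 18.94 at week 19 and 19.30 to 20.45 at week 10. The 3 nameable lymphoid stroma markers of 4 were at 17.03 to 17.94 at week 19 and at 11.95 to 13.54 at week 10. The basal epithelial marker Lgals7 (1 of 5) overlapped, at 14.03 to 14.32 at week 19 and 13.58 to 14.19 at week 10, as did the red cell marker Hba-a1 (1 of 2), at 19.04 to 19.75 at week 19 and 19.34 to 20.50 at week 10. No nameable marker was below background on all arrays, and their part in the Cebpb result was not tested. Hair markers (2 of 6) ranged from 7.28 to 18.81 at week 10 and reached at most 10.16 at the later ages. Of the 5 week 10 arrays 3 held hair keratin signal. Without them probe 450590 rose by 0.90 at week 19 against week 10 (limma adjusted p = 0.0414). That value rests on the few week 10 arrays left.

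Among 205 other named genes, profiles were ranked by Pearson's r over the 15 arrays, with no test since the extremes were picked. Nearest to the mean of the Cebpb probes were Mydgf (r = 0.88), H2-Q8 (0.78), Llgl1 (0.77), Vps25 (0.76) and Amigo3 (0.76). The probes were not scaled to the same spread. Probe 640455 (SD 0.78 over the arrays) therefore weighs more in that mean than probe 450590 (SD 0.39). The difference of the probes between array series, given above, enters that mean. Array series was not removed from these profiles, and its part in the ranking was not tested. Mydgf encodes a growth factor first known from bone marrow myeloid cells, and H2-Q8 is a class I histocompatibility gene. Llgl1 is a cell polarity gene and Vps25 encodes an ESCRT subunit. Amigo3 was above background on 10 of the 15 arrays. With age means removed Mydgf kept r = 0.88 and H2-Q8 had 0.61. Mydgf itself differed by 0.37 ± 0.32 at week 19 against week 10 and did not pass (limma adjusted p = 0.508). Farthest were Acyp2 (-0.87), an acylphosphatase, Nupr1l (-0.83) and the histone gene H2bc18 (-0.81). The median r of the 205 genes was -0.035.

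For Jun the nearest profiles were weaker. They were Ntn1 (r = 0.70), the axon guidance cue netrin-1, the interferon-inducible Ifi202b (0.69), the matrix gene Mfap4 (0.63), B9d1 (0.58), a cilium gene, and the keratin gene Krt23 (0.54). Farthest were Tspyl2 (-0.68), Atox1 (-0.67), a copper chaperone, and Dhrs7b (-0.56). No gene was on both lists, and the median r with Jun was 0.014.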

How the data were processed

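Total RNA of 15 mammary glands was labelled with digoxigenin and read by chemiluminescence on 1-colour AB1700 arrays, per the labels' protocols. The deposited signal intensity and its SD are on a linear scale, with a signal-to-noise score and a CV score per probe, per the file headers. Background treatment is not stated in the labels or headers. The authors' deposited value table holds log2 values with the same quantiles on each array and was used as an alternative.

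Signals of 33012 probes, without 303 control spots, were taken to log2 and quantile normalized. A probe was kept when it reached a signal-to-noise score of 3, with a flag under 5000, on at least 50% of the arrays of 1 age (20867, all 3 probes of Jun and Cebpb among them). Limma 3.58.1 in R 4.3.3 (lmFit, eBayes, two-sided) was run on the 15 arrays together, with 4 age levels or with age as a number, and p-values were adjusted by Benjamini-Hochberg over all kept probes at a threshold of 0.05. Intervals are 95% limits from that fit. The fit was tested on simulated data with independent noise and no array series or scan day, so that test does not bear on either. Ages with 2 arrays share the spread of the others. Exact permutation tests and permutation tests of correlations (100000 resamples) were two-sided. With 1 animal per array, p-values measure a spread in which differences between animals and between arrays cannot be separated. The number of arrays limits the precision.

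Probes were named through unversioned accessions, and BC symbols, in the RefSeq table (GRCm38.p6), which named 317 of 33012 probes. That table gave names only. For a gene with several probes the brightest stood for it, except Cebpb. Named genes are all members, all nameable genes of 3 pathway lists, and the 5 nearest and 3 farthest profiles for each gene. Members and lists were chosen with earlier results of these data known. Alternatives were the scaling, an offset of 50, the filter, scan day, array series, array weights and omitted arrays.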

Additional observations from a re-analysis of the deposited data

Results flagged for a closer look

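The Jun signal of week 10 replicate 3 (15.31) stood apart from the other 4 week 10 arrays, with a gap to the next of 0.734 of the group's range, where 0.71 is the limit for 5 arrays. Without that array the week 22 minus week 10 difference of Jun was -0.081 and the week 19 minus week 10 difference 0.096. Chance sets about 1 in 20 groups apart in this way, and 9 groups were examined.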

How the results depend on the processing

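Late against early ages, the rise of Cebpb probe 450590 kept its direction under every setting tried and kept its call in 9 of 13 settings. Values are log2 changes, with changes per week for the trend. For this probe the week 19 against week 10 change was 0.72 without a filter (SE 0.20, adjusted p = 0.0558), 0.65 with array series and 0.67 with scan day as a block, and 0.46 in series 3, 0.91 in series 4, 1.0 on scan day 1 and 0.57 on scan day 2 alone, all short of the threshold. Its trend was 0.054 without a filter, 0.048 with scan day as a block, 0.047 in series 3, 0.065 in series 4, 0.045 on day 1, 0.051 on day 2 and 0.066 without the week 10 arrays with hair signal, likewise short of it. Late against early it was 0.67 in series 4, 0.59 on day 1, 0.49 on day 2 and 0.57 without series 2 (adjusted p = 0.0527, chosen after the data were seen). It passed at week 22 against week 10 with median centring (0.78) or array weights (0.57), and its F value passed with median centring (10.1) or a filter on all arrays of an age (6.3). At week 22 against week 19 it was 0.083 with median centring and 0.058 in series 3. The correlation of the Cebpb probes was 0.45 with median centring.

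Probe 640455 passed late against early with array series as a block (0.70). Its week 22 against week 10 change came to -0.12 under the scan day block and to -0.89 on day 1, and its trend on day 1 was -0.047. Week 15 against week 10 was 0.98 on day 2, 0.28 in series 4 and 0.50 without series 2. Week 22 against week 19 was 0.050 with array weights. Jun at week 22 against week 10 was -0.014 with array series as a block, -0.29 with array weights, -0.37 on day 2, -0.26 in series 3, -0.10 in series 4 and -0.19 without series 2. Its trend was -0.012 with array weights, -0.020 on day 2 and -0.018 in series 3. Jun was also -0.10 at week 19 against week 10 in series 3, 0.020 at week 15 against week 10 in series 4, and 0.15 with median centring and 0.93 on day 1 at week 22 against week 19. The causes were not tested.

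Leaving out each array in turn gave, for probe 450590, 0.62 to 0.83 at week 19 against week 10, 0.51 to 0.62 late against early, 0.045 to 0.063 for the trend (the call lost in 7 of 15 omissions), -0.0068 to 0.22 at week 15 against week 10, and F values of 4.44 to 6.98. For probe 640455 it gave 0.14 to 1.30 late against early, 0.086 to 2.40 at week 19 against week 15 (the highest of each without week 15 replicate 2, which passed), -0.040 to 0.52 at week 22 and -1.81 to 0.50 at week 15, each against week 10. For Jun it gave -0.19 to 0.32 at week 22 against week 10, -0.49 to 0.022 at week 22 against week 19, and correlations of 0.11 to 0.52 with probe 450590 and -0.11 to 0.45 with probe 640455.

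Over the settings the number of probes called ran from 0 to 5158 at week 22 and from 51 to 4240 at week 19, each against week 10 (2495 and 2612 as reported), from 0 to 3448 at week 19 against week 15 (2832), from 0 to 327 at week 15 against week 10 (7), from 0 to 21 at week 22 against week 19 (0), from 5 to 5842 late against early (5525) and from 0 to 5478 for the trend (3326). At week 22 against week 10, median centring called 2674 probes as higher and 500 as lower, against 1623 and 872. No paired analysis was possible because the replicate numbers follow accession order only. Array series 1 and 2 gave no comparison of weeks 19 or 22 with week 10 of their own. The number of arrays, with 2 at week 15, limits the precision, and signals of these probes lie far above background.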
